A study of Chlorocebus sabaeus with 6 samples.

Results

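The genes of DNA replication and mitosis were followed in COS7 cells that lack 2 atlastins and in wild-type COS7 cells. The members were the rows of the deposited expression table whose symbol stands on a fixed list of 55 genes, 29 of replication and 26 of mitosis. Of these, 54 were found (28 and 26) among 18050 genes in the table. All 54 passed the filter on low counts and were tested among 13094 genes. POLD1, a DNA polymerase subunit gene of the list, was not analysed here.

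COS7 is a fibroblast-like line from African green monkey kidney (Chlorocebus sabaeus), immortalised with SV40, whose large T antigen is known to bind the RB proteins and p53. The DKO group was labelled as an ATL2/3 knockout of COS7 (3 samples) and the WT group as wild-type COS7 (3 samples). Both groups were grown in the same serum-containing medium. ATL2 and ATL3 encode atlastins, GTPases that fuse membranes of the endoplasmic reticulum. The labels name neither the number of clones nor whether samples were separate cultures, so the tests weigh differences against sample-to-sample variation that may be technical alone.

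Each library held between 14197344 and 15693049 estimated counts, and the lowest count of any member was 96, for GINS1. DKO replicate 3 stood apart: at equal totals it differed from DKO replicates 1 and 2 by a chi-square of 76.9 and 81.9 per gene, against 1.54 between those samples and 1.85 to 3.62 between WT samples. The results that rest on it are therefore given with and without it. ATL2 fell to 0.216 of its WT level (log2 fold change -2.21, edgeR adjusted p = 0.000288) and ATL3 to 0.140 (-2.83, edgeR adjusted p = 3.65e-05). The 7 mesenchymal markers summed to 1511 to 1562 FPKM in DKO and 3360 to 3451 FPKM in WT, with THY1 at 0 counts in all samples. Of the 5 that were tested, 1 was called higher and 3 lower: FN1 had 207 FPKM in DKO and 1838 FPKM in WT, COL1A1 and S100A4 also fell, PDGFRB rose, and VIM, at 1318 FPKM in DKO and 1533 FPKM in WT, was not called. The 6 epithelial markers, mostly KRT8 and KRT18, summed to 529 to 690 FPKM in DKO and 708 to 801 FPKM in WT, with 2 called higher (EPCAM and KRT19), 3 lower (CDH1, CLDN4 and KRT18) and KRT8 not called. The 3 endothelial markers found in the table summed to at most 0.42 FPKM, and the 5 leukocyte markers, nearly all from CD68, to 14.4 to 15.9 FPKM in DKO and 14.5 to 16.6 FPKM in WT. The part of these differences in the results below was not tested.

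DNA replication begins when the origin recognition complex, CDC6 and CDT1 load the ring of MCM subunits onto DNA. CDC45 and the GINS complex then turn the ring into an active helicase, and polymerases, the PCNA clamp and its RFC loader copy the strands. At mitosis, cyclins A and B drive CDK1, Aurora and Polo-like kinases build the spindle, and the checkpoint holds the anaphase-promoting complex (APC/C) until chromosomes are attached. Transcripts of many of these genes are known to vary between phases of the cell cycle. In a bulk sample, a change per cell and a change in the share of cells in a phase therefore cannot be told apart. Likewise, fewer cells of a type and less RNA per cell cannot be told apart.

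Levels are given in FPKM, which scales counts to transcript length and library depth. Fold changes are DKO over WT on the log2 scale. They come from edgeR's quasi-likelihood test over all genes, with its adjusted p. The standard error (SE) was worked out from the fold change and the F statistic of that test. Genes with an adjusted p under 0.05 are referred to as called. Of the 54 genes, 13 were called, 9 higher and 4 lower in DKO, or 24.1%, where 45.5% of all tested genes were called. Among the 7074 tested genes with a WT level at or above that of the lowest member, 9.28 FPKM, the share called was 38.5%. The median size of the log2 fold change was 0.24 over the members, 0.36 over those 7074 genes and 0.47 over all tested genes. The differences between these shares and between these sizes were not tested. By CPM after TMM scaling, the 3 DKO samples lay above the 3 WT samples for 15 members and below them for 14, where 30.5% and 32.0% of all genes did so. Leaving out DKO replicate 3 gave 39 called members, 20 higher and 19 lower, where 74.6% of all genes were called. All 13 genes were called in the same direction in that fit. There the DKO group holds only the pair of near-alike libraries, and the median SD of log2 CPM (counts relative to the library total) between them was 0.03 over the members, against 0.22 over the 3 DKO samples.

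**Figure D1:**
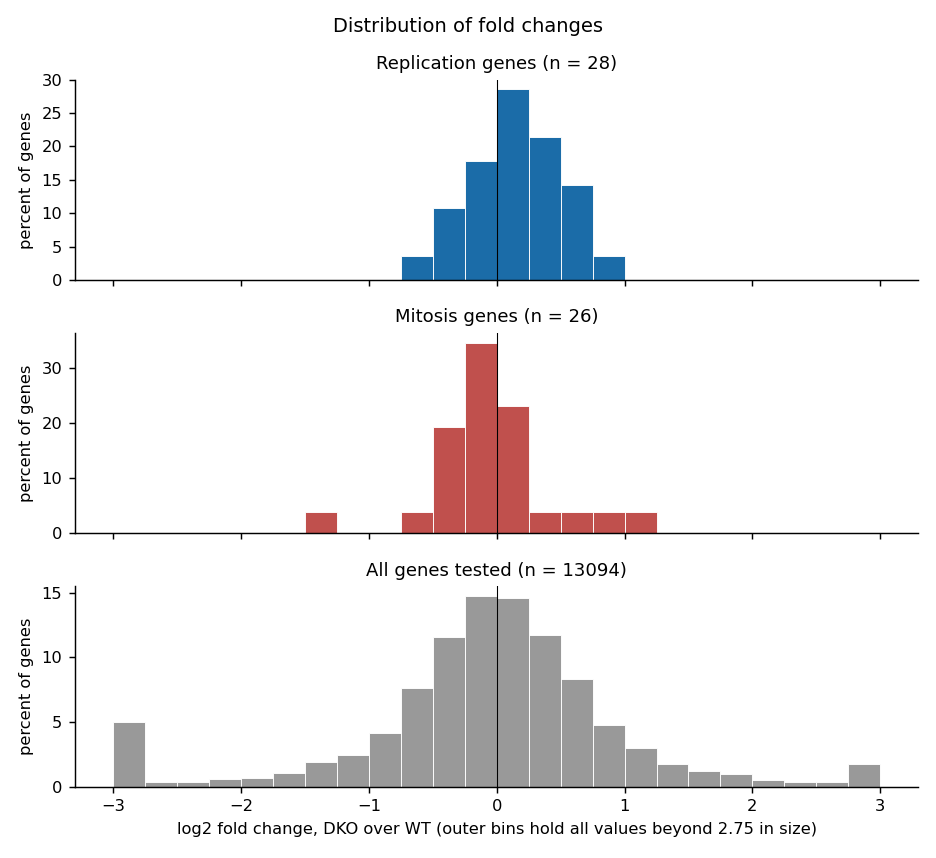
Share of genes (percent, vertical axes) in each bin of log2 fold change, DKO over WT (horizontal axis), for 28 replication genes, 26 mitosis genes and all 13094 genes tested. The replication genes lay between -0.65 and 0.80 and the mitosis genes between -1.37 and 1.03, while the middle 90% of all genes lay between -2.76 and 1.54.

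The replication genes were called higher in 6 cases and lower in 2, with 20 not called, beside 23.3% of all genes called higher and 22.2% called lower. Their median log2 fold change was 0.16, against -0.01 over all genes. The 6 were the helicase genes MCM5, CDC45, GINS3 and GINS4 and the nucleotide genes RRM2 and TYMS, and the 2 were GINS1 and PCNA. With DKO replicate 3 left out the counts were 13 higher and 7 lower, with a median of 0.09, beside 36.0% and 38.6% of all genes. The mitosis genes were called higher in 3 cases (CKS2, CDC20 and AURKB) and lower in 2 (CENPF and CCNA2), with 21 not called and a median of -0.10. In the fit without DKO replicate 3, there were 7 mitosis genes higher and 12 lower, with a median of -0.02. In fits that left out any 1 WT sample, 5 replication genes were higher and 1 lower, and 2 mitosis genes were higher and 1 lower, where 4266 to 4379 of all genes were called against 5959 with all samples. Without DKO replicate 1, the replication genes again had 1 lower.

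**Figure D2:**
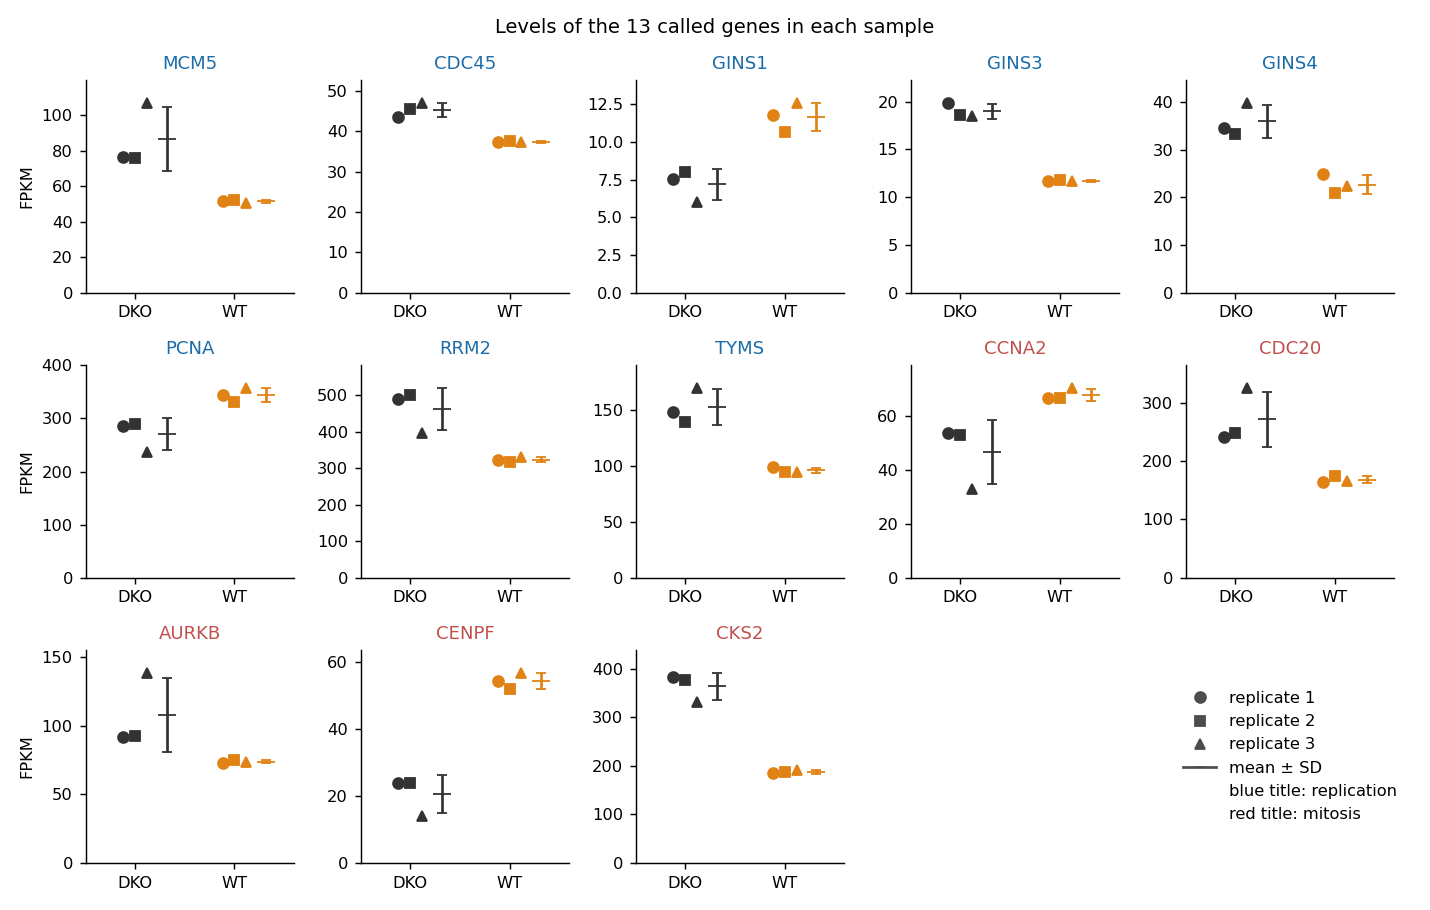
FPKM (vertical axes, from 0) of the 13 called genes in each sample, with DKO left of WT, points for replicates 1 to 3 and the mean ± SD beside them. In each panel the 3 DKO samples lie on one side of the 3 WT samples, and DKO replicate 3 (triangle) is set off from the other DKO samples most clearly for MCM5, CCNA2, CDC20, AURKB and CENPF.

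Of the genes for the MCM2 to MCM7 helicase, MCM5 alone was called with all samples, and it rose. Over all tested genes, 45.5% were called. MCM5 (gene ID 103223231) had 76.5, 76.1 and 107 FPKM in DKO, against 51.7, 52.3 and 50.4 FPKM in WT. Every DKO sample lay above every WT sample, and DKO replicate 3 was the highest. The log2 fold change came to 0.80 (SE 0.17, edgeR adjusted p = 0.00862), and 0.57 without DKO replicate 3. Summed over the 6 subunits, the DKO samples had 637, 629 and 772 FPKM, against 643, 648 and 642 FPKM in WT. DKO replicates 1 and 2 thus lay just below the WT samples and DKO replicate 3 above them. MCM3 had 84.7, 85.1 and 101 FPKM in DKO and 109, 110 and 109 FPKM in WT, all DKO samples being lower on this scale. Its log2 fold change of -0.23 was not called (SE 0.12, edgeR adjusted p = 0.155), but without DKO replicate 3 it was -0.36 and called. The level of MCM5 was 0.952 ± 0.0927 of that of MCM3 in DKO and 0.471 ± 0.0063 in WT (SD, n = 3 each), a ratio chosen after the values were seen. MCM4 had 121.6, 119 and 111 FPKM in DKO, against 135, 132 and 139 FPKM in WT, and was not called (-0.16, SE 0.08, edgeR adjusted p = 0.125), but it was called at -0.17 without DKO replicate 3. MCM2 (0.16), MCM6 (0.01) and MCM7 (0.26) were not called either, and their groups overlapped. MCM6 and MCM2 were on the other side of 0 under some settings. MCM7, the most abundant subunit at 246 ± 51.4 FPKM in DKO and 212 ± 7.14 FPKM in WT, had estimated counts that were not whole, so its level is uncertain where reads were split with a similar gene.

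GINS, the complex of 4 subunits that joins the MCM ring with CDC45, changed unevenly. GINS3 (gene ID 103233088) had 19.9, 18.6 and 18.5 FPKM in DKO and 11.7, 11.9 and 11.7 FPKM in WT. The groups stood well apart, with DKO replicate 3 close to the other DKO samples. The log2 fold change came to 0.74 (SE 0.10, edgeR adjusted p = 0.00112). GINS4 (gene ID 103215675) had 34.6, 33.4 and 39.9 FPKM in DKO, against 24.8, 20.9 and 22.3 FPKM in WT, and also rose (0.71, SE 0.15, edgeR adjusted p = 0.00759). GINS1 (gene ID 103216161) went the other way, with 7.51, 8.02 and 6.03 FPKM in DKO and 11.8, 10.6 and 12.6 FPKM in WT. It was the least abundant replication gene in both groups, with 96 to 108 counts per DKO library and 153 to 181 per WT library. It fell by 0.65 on the log2 scale (SE 0.14, edgeR adjusted p = 0.00727), and these 3 calls held in each fit that left out 1 sample. GINS2 had 22.4, 20.7 and 22.0 FPKM in DKO and 19.6, 18.5 and 20.2 FPKM in WT, without overlap, and was not called (0.21, SE 0.12, edgeR adjusted p = 0.181). The ratio of GINS3 to GINS1, also chosen after the values were seen, was 2.68 ± 0.372 in DKO and 1.01 ± 0.0937 in WT (SD, n = 3 each). CDC45 (gene ID 103223001) rose by less, with 43.5, 45.6 and 47.1 FPKM in DKO and 37.3, 37.7 and 37.3 FPKM in WT. Its log2 fold change came to 0.32 (SE 0.10, edgeR adjusted p = 0.0385). The CDC45 call was lost without any 1 of DKO replicates 1 and 2 or WT replicates 1, 2 and 3, with log2 fold changes of 0.31 to 0.36 and edgeR adjusted p up to 0.147. Among the 6 genes of helicase activation (GINS, CDC45 and MCM10), 3 were higher by edgeR and limma-voom and 2 by DESeq2. MCM10, which helps to start the helicase, was not called with all samples (0.07, SE 0.11) and was called at 0.15 without DKO replicate 3.

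None of the 4 licensing genes was called by edgeR, DESeq2 or limma-voom, and 0 had an unadjusted edgeR p below 0.05. Of all tested genes, 45.5% were called by edgeR. ORC6, a subunit of the origin recognition complex, had 60.6, 63.6 and 35.1 FPKM in DKO and 46.9, 41.8 and 43.0 FPKM in WT. DKO replicates 1 and 2 were above all WT samples and DKO replicate 3 below them. With all samples its log2 fold change came to 0.31 (SE 0.19, edgeR adjusted p = 0.231), and without DKO replicate 3 it was 0.49 and called. The loading factor genes CDC6 (0.05, SE 0.11) and CDT1 (-0.02, SE 0.16) and the recognition subunit gene ORC1 (0.06, SE 0.12) had overlapping groups. Without DKO replicate 3, CDC6 was called at 0.12 and CDT1 at -0.17, and ORC1 was not called at -0.06. The signs of these 3 genes were not the same in all fits that left out 1 sample.

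At the fork itself, 1 of 9 genes was called, where 45.5% of all tested genes were. PCNA (gene ID 103246929), the sliding clamp and the most abundant replication gene of WT cells, had 285, 290.2 and 236 FPKM in DKO, against 345, 330.2 and 358 FPKM in WT. All DKO samples were lower, and DKO replicate 3 was the lowest. PCNA fell by 0.30 on the log2 scale (SE 0.09, edgeR adjusted p = 0.0254). This call was lost without DKO replicate 1 and without each WT replicate, with log2 fold changes of -0.28 to -0.34 and edgeR adjusted p of 0.0557 to 0.116. LIG1, the ligase that seals Okazaki fragments, had 38.4, 40.5 and 52.8 FPKM in DKO and 61.7, 63.9 and 59.6 FPKM in WT. Its groups did not overlap, but the edgeR adjusted p was 0.0617 (-0.43, SE 0.16), and without DKO replicate 3 it was called at -0.64. POLE, the catalytic subunit of the leading-strand polymerase, had 18.2, 19.3 and 25.4 FPKM in DKO, against 16.1, 15.8 and 15.9 FPKM in WT. It stood at the edge of the call (0.43, SE 0.15, edgeR adjusted p = 0.0525), was called at 0.52 without DKO replicate 1 (edgeR adjusted p = 0.0444), and at 0.25 without DKO replicate 3. The primase gene PRIM1 had 65.3, 61.9 and 36.0 FPKM in DKO and 41.5, 36.8 and 44.8 FPKM in WT. DKO replicates 1 and 2 lay above the WT samples while DKO replicate 3 lay below all of them by FPKM and within the WT range by TMM-scaled CPM. The log2 fold change of PRIM1 came to 0.43 (SE 0.21, edgeR adjusted p = 0.134) with all samples, and 0.63 and called without DKO replicate 3. RFC3, a clamp loader subunit gene, had 17.7, 16.4 and 7.96 FPKM in DKO and 19.6, 18.4 and 22.2 FPKM in WT, and was not called (-0.49, SE 0.26, edgeR adjusted p = 0.169). Its value in DKO replicate 3 was less than those of the other DKO samples by 0.98 on the log2 scale, and without that library RFC3 was called at -0.24. RFC2, another loader subunit gene, was higher in all DKO samples and was not called (0.26, SE 0.10, edgeR adjusted p = 0.069), but it was called at 0.24 without DKO replicate 3. RFC4 (-0.08), the primase-bound polymerase gene POLA1 (-0.12) and the flap nuclease gene FEN1 (0.15) were called in neither fit.

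Of the 3 nucleotide genes, 2 were called higher, beside 23.3% of all tested genes. RRM2 (gene ID 103220834), the small and cell-cycle-regulated subunit of ribonucleotide reductase, had 491, 502 and 397 FPKM in DKO and 323, 318 and 330.1 FPKM in WT. All DKO samples were above the WT samples, DKO replicate 3 being the lowest of them. The log2 fold change came to 0.56 (SE 0.09, edgeR adjusted p = 0.00199). RRM1, the large subunit, had 95.1, 98.6 and 68.8 FPKM in DKO and 77.3, 71.6 and 78.7 FPKM in WT. Here DKO replicate 3 was below the WT samples by FPKM and within their range by TMM-scaled CPM, and RRM1 was not called (0.24, SE 0.13, edgeR adjusted p = 0.171). RRM1 was called at 0.35 when DKO replicate 3 was left out. The ratio of RRM2 to RRM1, also chosen with earlier results known, was 5.34 ± 0.376 in DKO and 4.27 ± 0.148 in WT (SD, n = 3 each). TYMS (gene ID 103222680), which makes thymidylate, had 148, 139 and 169.8 FPKM in DKO, against 98.8, 94.6 and 94.1 FPKM in WT. TYMS rose by 0.72 on the log2 scale (SE 0.13, edgeR adjusted p = 0.00366), with no overlap and with the call kept whichever sample was left out.

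**Figure D3:**
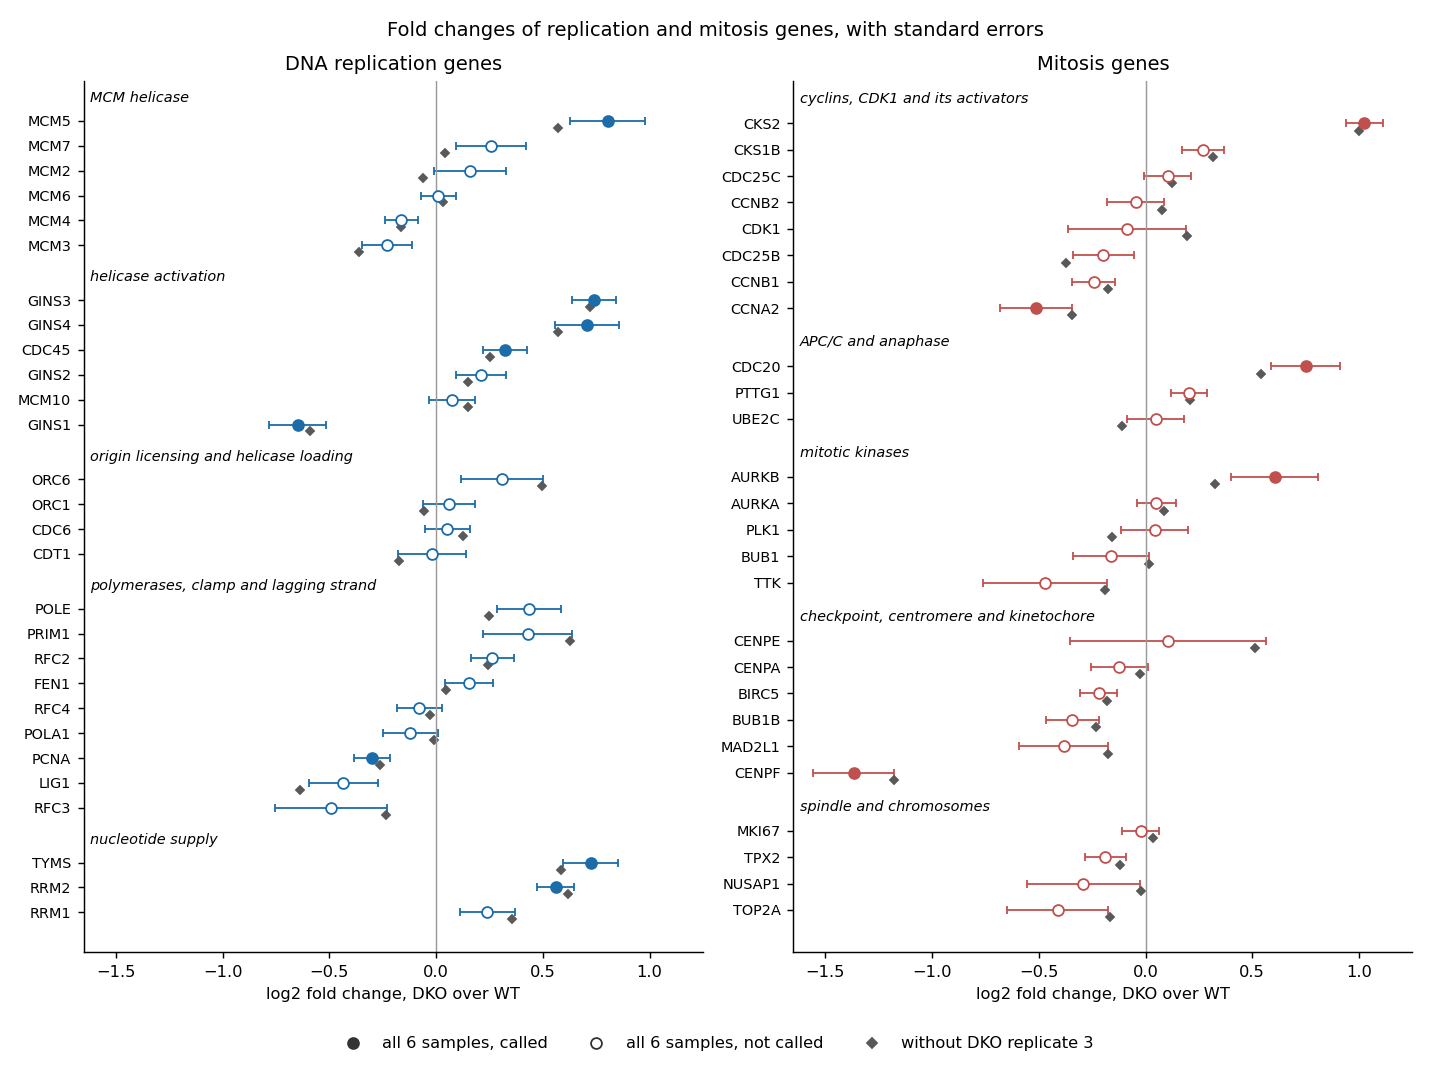
Log2 fold change, DKO over WT (horizontal axes), of 28 replication genes (left) and 26 mitosis genes (right) grouped by role, with bars for the SE, filled circles for called genes and diamonds for the fit without DKO replicate 3. CKS2 at 1.03 and CENPF at -1.37 are the outermost genes, and CENPE, CDK1 and TTK have the widest bars.

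Among the partners of CDK1, CKS2 rose and CCNA2 fell. CKS2 (gene ID 103219722), a small subunit that binds cyclin-dependent kinases, had 383, 376 and 332 FPKM in DKO, against 184, 186 and 191 FPKM in WT. All DKO samples were far above WT, and CKS2 had the largest increase of the 54 genes. The fold was 2.04 (log2 fold change 1.03, SE 0.09, edgeR adjusted p = 0.000127), and the log2 fold change was 1.00 to 1.04 over the fits that left out 1 sample. Its paralog CKS1B had 211, 198 and 158 FPKM in DKO and 160.4, 162 and 166 FPKM in WT. On this scale DKO replicate 3 was below the WT samples, and CKS1B was not called (0.27, SE 0.10, edgeR adjusted p = 0.0586). CKS1B was called at 0.32 without DKO replicate 3, and its level is uncertain because its estimated counts were not all whole. The same holds for BUB1B and UBE2C, each with a count that was not whole in only 1 of the 6 samples. The level of CKS2 was 1.94 ± 0.143 times that of CKS1B in DKO and 1.15 ± 0.0017 times in WT (SD, n = 3 each). This ratio too was chosen with earlier results known. Other ratios differed less or varied more within DKO. That of CCNB1 to CDK1 was 1.94 ± 0.714 in DKO and 1.96 ± 0.0524 in WT. For AURKB to AURKA it was 1.53 ± 0.539 in DKO and 1.03 ± 0.0536 in WT. For CENPF to CENPE it was 2.67 ± 1.49 in DKO and 5.87 ± 0.236 in WT.

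CCNA2 (gene ID 103236201), which encodes cyclin A2, had 53.8, 53.0 and 32.9 FPKM in DKO and 66.7, 66.6 and 70.6 FPKM in WT. All DKO samples were lower, DKO replicate 3 by the most. It fell by 0.51 on the log2 scale (SE 0.17, edgeR adjusted p = 0.0439), and by 0.34 without DKO replicate 3. The CCNA2 call was lost without WT replicate 1, 2 or 3, where its log2 fold change was -0.49 to -0.54 and the edgeR adjusted p 0.106 to 0.131. CCNB1, which encodes cyclin B1, had 207, 198 and 157 FPKM in DKO and 234, 217 and 234 FPKM in WT. Its groups did not overlap and it was not called (-0.24, SE 0.10, edgeR adjusted p = 0.0883), but it was called at -0.17 without DKO replicate 3. CDK1, the kinase itself, had 129.6, 136 and 57.0 FPKM in DKO, against 116, 111 and 122 FPKM in WT. DKO replicates 1 and 2 were above every WT sample and DKO replicate 3 at less than every WT sample. The CDK1 log2 fold change came to -0.09 (SE 0.28, edgeR adjusted p = 0.825), and 0.19 without DKO replicate 3, where it was called. The second B-type cyclin gene CCNB2 (-0.05, SE 0.13) and the CDK1-activating phosphatase genes CDC25B (-0.20, SE 0.14) and CDC25C (0.10, SE 0.11) were not called. CDC25B was called at -0.37 once DKO replicate 3 was left out.

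CDC20 (gene ID 103224971), the activator of APC/C in mitosis, had 241, 248 and 325 FPKM in DKO, against 164, 174 and 166 FPKM in WT. All DKO samples were higher, DKO replicate 3 by the most. The log2 fold change came to 0.75 (SE 0.16, edgeR adjusted p = 0.00813), and 0.54 without DKO replicate 3. UBE2C, the ubiquitin-conjugating enzyme of APC/C and the most abundant of the mitosis genes, had 359, 338 and 404 FPKM in DKO and 373, 367 and 368 FPKM in WT. DKO replicates 1 and 2 lay below WT and DKO replicate 3 above it (0.05, SE 0.13, edgeR adjusted p = 0.798). UBE2C was called at -0.11 when that library was left out. PTTG1, which encodes the separase inhibitor securin, had 209.8, 200.4 and 179.6 FPKM in DKO and 178, 176 and 177 FPKM in WT. The groups did not overlap, but PTTG1 was not called (0.20, SE 0.08, edgeR adjusted p = 0.0885), and it was called at 0.21 without DKO replicate 3. Its counts were not whole in any of the 6 samples, and its level is uncertain for the same reason as that of MCM7.

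Of the 5 mitotic kinase genes, AURKB alone was called, where 45.5% of all tested genes were. AURKB (gene ID 103242347), the kinase of the chromosomal passenger complex, had 92.1, 92.6 and 139 FPKM in DKO, against 73.2, 75.1 and 73.3 FPKM in WT. It was higher in all DKO samples and highest in DKO replicate 3 (0.61, SE 0.20, edgeR adjusted p = 0.0458). The AURKB log2 fold change was 0.32 without DKO replicate 3, and the call was lost without WT replicate 1, 2 or 3 (0.59 to 0.60, edgeR adjusted p 0.119 to 0.13). None of the 5 kinase genes was higher with limma-voom, upper-quartile factors, a replicate block or totals without the 100 most abundant genes. With DESeq2, RLE factors, no filter and limma on log2 FPKM, 1 was. AURKA, the spindle pole kinase, had 75.5, 75.9 and 64.4 FPKM in DKO and 72.0, 68.7 and 74.0 FPKM in WT, overlapping (0.05, SE 0.09, edgeR adjusted p = 0.683). PLK1 had 78.0, 75.5 and 103 FPKM in DKO and 84.6, 87.7 and 85.2 FPKM in WT. DKO replicate 3 was above WT and the other DKO samples below it, and PLK1 was not called (0.04, SE 0.16, edgeR adjusted p = 0.848). PLK1 was called at -0.16 without DKO replicate 3. The checkpoint kinase gene TTK had 20.8, 20.7 and 8.89 FPKM in DKO and 24.1, 21.1 and 26 FPKM in WT, lower in all DKO samples but not called (-0.47, SE 0.29, edgeR adjusted p = 0.225), and called at -0.19 without DKO replicate 3. BUB1 was not called with all samples (-0.16, SE 0.18) nor without DKO replicate 3 (0.02).

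CENPF fell the most of the 54 genes. CENPF (gene ID 103230102), a large kinetochore and microtubule protein, had 24.0, 23.9 and 14.1 FPKM in DKO, against 54.5, 51.9 and 56.8 FPKM in WT. Every DKO sample was under every WT sample by a wide margin. CENPF was at 0.388 of its WT level (log2 fold change -1.37, SE 0.19, edgeR adjusted p = 0.00115), and at -1.18 without DKO replicate 3. Of the members called, CENPF was lower by 2-fold or more, where 12.1% of all genes were, and CKS2 was higher by 2-fold or more, where 9.83% of all genes were. CENPE, a kinetochore motor, had 12.9, 13.6 and 3.22 FPKM in DKO and 9.70, 8.53 and 9.61 FPKM in WT. DKO replicates 1 and 2 were above the WT samples and DKO replicate 3 was lower than all others. With all samples CENPE was not called (0.11, SE 0.46, edgeR adjusted p = 0.87), and without DKO replicate 3 it was called at 0.51. The checkpoint genes BUB1B (-0.34, SE 0.12, edgeR adjusted p = 0.0582) and MAD2L1 (-0.38, SE 0.21, edgeR adjusted p = 0.176) and the passenger complex gene BIRC5, which encodes survivin (-0.22, SE 0.09, edgeR adjusted p = 0.0772), were lower in all DKO samples and not called. All 3 were called lower without DKO replicate 3, at -0.23, -0.18 and -0.18. The centromeric histone gene CENPA was not called in either fit (-0.12 and -0.03).

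None of the 4 genes of spindle and chromosome structure was called by edgeR, DESeq2 or limma-voom, and 0 had an unadjusted edgeR p below 0.05. Of all tested genes, 45.5% were called by edgeR. MKI67, which encodes the proliferation marker Ki-67, had 91.2, 91.5 and 75.6 FPKM in DKO, against 89.7, 87.7 and 90.8 FPKM in WT. The DKO samples fell on both sides of WT, and the log2 fold change came to -0.02 (SE 0.09, edgeR adjusted p = 0.855), and 0.04 without DKO replicate 3. TOP2A, the topoisomerase that untangles chromosomes, had 124, 128 and 62.4 FPKM in DKO and 142, 136 and 148 FPKM in WT. All DKO samples were lower, DKO replicate 3 by far the most, and TOP2A was not called (-0.41, SE 0.24, edgeR adjusted p = 0.197). The spindle assembly factor gene TPX2 (-0.19, SE 0.10) was not called, and neither was NUSAP1 (-0.29, SE 0.27), whose product bundles spindle microtubules. Without DKO replicate 3, TOP2A was called at -0.17 and TPX2 at -0.12. TOP2A and CDC6 lie close together in the RefSeq gene order of assembly mChlSab1.0.hap1, with 2 genes between them.

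**Figure D4:**
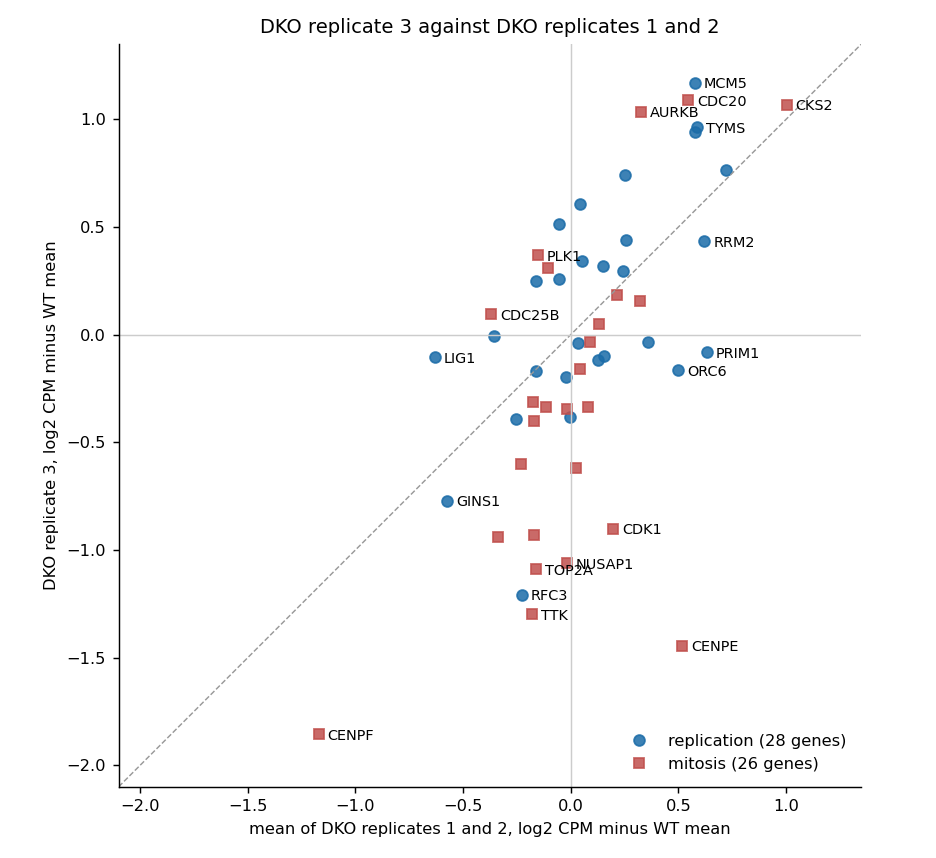
Log2 CPM minus the WT mean, in DKO replicate 3 (vertical axis) against the mean of DKO replicates 1 and 2 (horizontal axis), for 28 replication genes (circles) and 26 mitosis genes (squares), with a dashed line of equal values. CENPE is at 0.52 and -1.44 and CDK1 at 0.20 and -0.90, while CKS2, CENPF, GINS1 and RRM2 have the same sign on both axes.

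As a description of these samples, DKO replicate 3 was more often the lowest DKO sample over the mitosis members than over the replication members. DKO replicate 3 was under both other DKO samples for 19 of 26 mitosis genes, with a median log2 difference of -0.23 and extremes of -1.96 (CENPE) and 0.71 (AURKB). The same held for 12 of 28 replication genes, with a median of 0.05, and for 5389 of 13094 genes tested, with a median of 0.08. Over the other lists described below there was no such contrast. There it held for 28 of 45 replication genes (median -0.48) and 57 of 94 mitosis genes (median -0.49). DKO replicate 3 was above both other DKO samples for 6 mitosis genes, 13 replication genes and 6539 of all genes tested. By TMM-scaled CPM, for 11 of the 54 genes (20.4%), DKO replicates 1 and 2 lay on one side of the WT range and DKO replicate 3 on the other. They were MCM10, CDC6, ORC1, ORC6, CCNB2, CDK1, CDC25B, PLK1, CENPE, MKI67 and UBE2C, and among all tested genes the share was 14.4%. By module, they were 4 of 28 replication genes (14.3%) and 7 of 26 mitosis genes (26.9%). The genes split this way differ on the FPKM scale, where PRIM1, RRM1, CKS1B, AURKA and CDC25C were also among them and CDC25B was not. Across the members, the difference of DKO replicate 3 had a Pearson correlation of -0.23 with the log2 transcript length implied by counts and FPKM, and across all tested genes -0.23. By rank (Spearman), the correlations were -0.14 across the members and -0.26 across all tested genes. These correlations are across genes of the same libraries, and the part of length in the results was not tested.

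Summed levels depended on the scale for mitosis and not for replication. The 28 replication genes summed to 2318, 2315 and 2248 FPKM in DKO and 2099, 2059 and 2110 FPKM in WT. Their share of all estimated counts was 0.469%, 0.467% and 0.486% in DKO and 0.439%, 0.435% and 0.440% in WT, so the DKO samples were higher on both scales. Much of the FPKM difference lay in RRM2 (mean 463 FPKM in DKO and 324 FPKM in WT) and TYMS (152 and 95.8 FPKM). PCNA went the other way (271 and 344 FPKM). Of the 28 genes, 9 had a log2 fold change below 0, so the sums do not show a rise shared by all members. The 26 mitosis genes summed to 3022, 2979 and 2653 FPKM in DKO and 2787, 2746 and 2841 FPKM in WT, with DKO replicates 1 and 2 above WT and DKO replicate 3 below. As a share of counts, which weights long transcripts such as those of MKI67, CENPF and TOP2A, they held 0.613%, 0.611% and 0.508% in DKO and 0.647%, 0.634% and 0.662% in WT, lower in all DKO samples. No test was made of these sums. For any single value the smallest exact two-sided permutation p of 3 samples against 3 is 0.1.

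Other genes of replication, from lists that do not overlap the members, were called in both directions. The counts of each list stand beside 23.3% of all tested genes called higher and 22.2% called lower, or 36.0% and 38.6% without DKO replicate 3. Of 14 other origin genes, 0 were higher and 3 lower by edgeR (0 and 5 by DESeq2, 0 and 4 by limma-voom; 0 and 4 at an unadjusted edgeR p below 0.05), with a median log2 fold change of -0.24. DONSON, a helicase assembly factor gene, fell to 38.5 ± 8.30 FPKM in DKO, against 73.8 ± 1.26 FPKM in WT (-0.91, SE 0.15, edgeR adjusted p = 0.00226). TOPBP1 (-0.66, SE 0.17) and the origin recognition gene ORC2 (-0.78, SE 0.26) also fell, and both calls were lost without WT replicate 1, 2 or 3, that of ORC2 also without DKO replicate 1. Without DKO replicate 3, 5 of the list were higher and 9 lower, and without any 1 WT sample 1 was lower. Of 22 other fork genes, 6 were higher and 4 lower (11 and 8 without DKO replicate 3, and 5 and 2 without any 1 WT sample). RPA2, a subunit of the single-strand binding protein RPA, rose to 119 ± 2.01 FPKM in DKO, against 43.4 ± 0.919 FPKM in WT (1.504, SE 0.09, edgeR adjusted p = 3.28e-05). The polymerase epsilon subunit gene POLE3 (0.85, SE 0.11) and RNASEH2A, a subunit gene of the nuclease that removes ribonucleotides from DNA (1.15, SE 0.19), rose as well, while the chromatin assembly gene CHAF1B fell (-0.77, SE 0.11). Of 9 other nucleotide genes, 0 were higher and 2 lower by edgeR, DESeq2, limma-voom and at an unadjusted edgeR p below 0.05, with 3 higher and 4 lower without DKO replicate 3 and 1 lower without any 1 WT sample. SAMHD1, which degrades deoxynucleotides, fell to 6.66 ± 0.671 FPKM in DKO, against 12.7 ± 0.495 FPKM in WT (-0.90, SE 0.11, edgeR adjusted p = 0.000674).

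Other genes of mitosis also went both ways, beside the same shares of all genes (23.3% higher and 22.2% lower, or 36.0% and 38.6% without DKO replicate 3). Of 12 genes of mitotic entry, 2 were higher and 2 lower (4 and 5 without DKO replicate 3). The CDK-activating phosphatase gene CDC25A (0.63, SE 0.10) and the CDK phosphatase gene CDKN3 (0.92, SE 0.16) rose, and the centrosomal kinase gene NEK2 (-0.97, SE 0.16) and the CDK1-inhibiting kinase gene PKMYT1 (-0.70, SE 0.18) fell. The PKMYT1 call was lost without WT replicate 2, which left 1 lower. Of 35 kinetochore and centromere genes, 4 were higher and 4 lower (14 and 12 without DKO replicate 3, and 3 and 2 without WT replicate 2 or 3). CENPW rose to 132 ± 12.03 FPKM in DKO, against 62.6 ± 1.195 FPKM in WT (1.15, SE 0.14, edgeR adjusted p = 0.000729), as did CENPP (0.92, SE 0.18) and HJURP, the loader of CENPA (0.44, SE 0.10), while DSN1 fell (-0.67, SE 0.12). The HJURP call was lost without WT replicate 1 or 2.

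Of 18 other genes of APC/C and separase, 5 were higher and 3 lower (7 and 8 without DKO replicate 3, and 3 and 1 or 2 without any 1 WT sample). The shares of all tested genes were again 23.3% higher and 22.2% lower, or 36.0% and 38.6% without DKO replicate 3. The APC/C subunit gene CDC26 rose to 97.2 ± 2.10 FPKM in DKO, against 40.7 ± 1.197 FPKM in WT (1.32, SE 0.12, edgeR adjusted p = 0.000157). ANAPC15 (1.04, SE 0.21) and ANAPC5 (0.50, SE 0.11) rose, and FZR1, which encodes the second APC/C activator CDH1, fell (-0.73, SE 0.17). Of 13 spindle and cytokinesis genes, 3 were higher and 3 lower. The spindle pole gene NUMA1 rose (0.80, SE 0.14, edgeR adjusted p = 0.00323) and kept its call in each fit that left out 1 sample. KNSTRN (0.42, SE 0.12), PRC1 (-0.26, SE 0.08) and ASPM (-1.31, SE 0.41) were called with all samples. The calls of KNSTRN and PRC1 were lost without any 1 sample other than DKO replicate 3, and that of ASPM without WT replicate 1, 2 or 3. In this list 7 were higher and 4 lower without DKO replicate 3, 1 and 1 without DKO replicate 1 or 2, and 1 and 0 without any 1 WT sample.

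The last lists stand beside 23.3% of all tested genes called higher and 22.2% lower, or 36.0% and 38.6% without DKO replicate 3. Of 16 cohesin and condensin genes, 0 were higher and 1 lower by edgeR (0 and 2 by DESeq2, limma-voom and at an unadjusted edgeR p below 0.05), and 2 were higher and 6 lower without DKO replicate 3. The 1 gene was the cohesin gene STAG2, which fell to 13.7 ± 4.63 FPKM in DKO, against 39.0 ± 1.75 FPKM in WT (-1.48, SE 0.23, edgeR adjusted p = 0.00211). Among 7 regulators of late cell-cycle genes, LIN52 rose (0.69, SE 0.16) and LIN9 fell (-1.18, SE 0.32). The LIN52 call was lost without WT replicate 1 and the LIN9 call without WT replicate 1, 2 or 3, and 1 were higher and 3 lower without DKO replicate 3. The transcription factor genes FOXM1 and MYBL2, named here after their values were seen, had 98.1 ± 8.91 and 214 ± 37.2 FPKM in DKO and 94.3 ± 1.62 and 194 ± 6.92 FPKM in WT. Neither was called (0.10, SE 0.11, and 0.19, SE 0.15).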

How the data were processed

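RNA of 6 samples was sequenced from libraries made with BGI's dual-mode mRNA kit, per the labels' protocols. The submitters' processing notes list HISAT and Bowtie2. For versions, genome build and counting software, the sources used here give nothing, and no coordinates are reported. The authors deposited estimated counts and FPKM values per gene and sample, per the file headers. In each sample, between 5.80 and 6.54% of the genes in the table had an estimated count that was not whole. Another 9 columns of other samples were not used, nor were TPM values and group means.

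Rounded estimated counts were fitted by quasi-likelihood in edgeR 4.0.16 under R 4.3.3 (TMM normalization, low-count filter at 10, Benjamini-Hochberg adjustment over 13094 genes). The SE is the log2 fold change's size divided by the root of F, not a direct estimate of spread. Non-overlap was judged on TMM-scaled CPM. Alternatives were leaving out each sample, a replicate block, no filter, other scalings, DESeq2 1.42.0, limma-voom and limma 3.58.1 on log2(FPKM + 1) or (FPKM + 0.1), and a threshold of 0.01. The fit was tested on simulated data.

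The members and lists were chosen with earlier results of these data known. All members were named, with up to 4 called genes of smallest adjusted p per other list, except 1 that is not reported here. CCNF was matched by gene ID through RefSeq.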

Additional observations from a re-analysis of the deposited data

How the results depend on the processing

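At an adjusted p below 0.01, 3902 genes were called where 5959 were at 0.05, with 1 replication and 1 mitosis gene lower. The lower replication genes numbered 4 with limma on log2(FPKM + 1) and on log2(FPKM + 0.1), where the replication median was 0.10 in both. The replication median was 0.12 without the filter and 0.11 with totals that left out the 100 most abundant genes, and the lower mitosis genes numbered 1 and 4. Same-numbered deviations from the group means correlated at 0.02, -0.28 and -0.29, and no DKO sample correlated best with the WT sample of its own number. The DKO deviations mostly follow DKO replicate 3. With WT replicate 2, DKO replicates 1 and 2 correlated at -0.26 and -0.28, and DKO replicate 3 at 0.31. These correlations therefore cannot tell whether replicate numbers pair the samples. With the replicate block 4485 genes were called, 1 replication and 1 mitosis gene lower.

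Over fits leaving out 1 sample, the genes called numbered 4266 to 9880, replication genes 5 to 13 higher and 1 to 7 lower, and mitosis genes 2 to 7 higher and 1 to 12 lower. The median of replication genes was 0.0863 to 0.1836 and of mitosis genes -0.18 to -0.02. The most calls came without DKO replicate 3. The cause was not tested.

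Genes that were not called changed sign. Left-out samples gave log2 fold changes of -0.0609 to 0.262 for MCM2, -0.0268 to 0.030 for MCM6, -0.0157 to 0.1249 for CDC6, -0.174 to 0.0747 for CDT1, -0.0575 to 0.1108 for ORC1, -0.13 to 0.076 for CCNB2, -0.28 to 0.19 for CDK1, -0.16 to 0.13 for PLK1, -0.28 to 0.0185 for BUB1, -0.19 to 0.51 for CENPE, -0.0641 to 0.0367 for MKI67 and -0.11 to 0.13 for UBE2C. MCM6 was -0.0225 without the filter, -0.0105 with RLE factors and with DESeq2, and -0.0312 without the 100 most abundant genes. PLK1 was -0.0009 without the filter and -0.0026 without the 100 most abundant genes. CENPE was -0.11 with the block and -0.14 with limma-voom. On log2 FPKM with pseudocounts of 1 and 0.1, MCM6 was -0.0308 and -0.0312, PLK1 -0.0208 and -0.0211, CENPE -0.11 and -0.16, and UBE2C -0.0142 and -0.0143.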
